A study of Mus musculus with 460 samples.

Results

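The genes described here are 5 growth factor ligands, Fgf2, Fgf7, Fgf10, Fgf18 and Hgf, and the 4 fibroblast growth factor (FGF) receptors Fgfr1, Fgfr2, Fgfr3 and Fgfr4. They are 9 of the 48440 genes in the table and were taken by gene symbol. The study sequenced single cells labelled as CAFs (cancer-associated fibroblasts, the connective tissue cells of a tumour) from lung adenocarcinoma in mice of 1 strain that develops lung tumours. There is 1 group of 460 cells, and each sample is 1 cell. No control tissue, treatment, age or animal is named in the labels, so the cells count as 1 sample and no p-value is given. All intervals below are exact 95% intervals for counting error only. Within the cells, the comparison is between the 203 cells with more Rgs5 than Pdgfra counts, called Rgs5-leading cells (44.1% of the cells, interval 39.5 to 48.8%), and the 257 others, called Pdgfra-leading cells. Rgs5 encodes a regulator of G protein signalling known as a pericyte marker, and Pdgfra encodes a receptor for platelet-derived growth factor that marks fibroblasts. No cell had equal counts of both, and 42 cells lay within 1.5-fold of equality.

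FGF ligands bind receptor tyrosine kinases together with heparan sulfate, and the receptors pass the signal through adaptor proteins to a kinase cascade, whose target genes include its own inhibitors. In the lung, Fgf7 and Fgf10 are known as mesenchymal ligands that act on the epithelial splice form of Fgfr2, and Hgf, the hepatocyte growth factor, as a mesenchymal ligand of the epithelial receptor Met. Fgf2 is a broadly acting FGF that leaves cells without a classical signal peptide, and Fgf18 takes part in skeletal growth and in the formation of alveoli.

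The cells carried a median of 88701 molecular barcode counts, with a range of 25029 to 240496. The median was 76944 in Rgs5-leading cells and 96654 in Pdgfra-leading cells. Col1a1, Pdgfra and Rgs5 had a count in all 460 cells, and Dcn had one in 99.3% of them. Epcam, Pecam1 and Ptprc, which mark epithelial, endothelial and immune cells, had a count in 5.43% (interval 3.55 to 7.92%), 16.3% (13.05 to 20.003%) and 11.3% (8.56 to 14.6%) of the cells, and no population that should lack the FGF genes was available as a background. Sftpc, a surfactant gene of alveolar epithelium and of tumour cells, had a count in 80.9% of the cells and 483 CPM (counts scaled to a fixed total of 1000000). In 127 columns, which lie in runs of the table, it stood at 56.1 CPM, against 617.7 CPM in the other 333. Results are therefore also given within these runs and within the other columns.

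Fgfr1 and Fgf2 were the widely counted members, Hgf and Fgfr2 were counted in most cells, and the other ligands and receptors were counted in a minority. Fgfr1 had a count in 459 of 460 cells, Fgf2 in 395 cells (85.9%, interval 82.3 to 88.9%), Fgfr2 in 363 cells (78.9%, 74.9 to 82.6%) and Hgf in 330 cells (71.7%, 67.4 to 75.8%). Fgf10 had a count in 132 cells (28.7%, 24.6 to 33.1%), Fgf18 in 130 cells (28.3%, 24.2 to 32.6%), Fgfr3 in 107 cells (23.3%, 19.5 to 27.4%), Fgf7 in 68 cells (14.8%, 11.7 to 18.4%) and Fgfr4 in 24 cells (5.22%, 3.37 to 7.66%). The share for Fgfr4 was no higher than that of Epcam, and the share for Fgf7 lay between those of Ptprc and Pecam1, so neither share is read as expression by fibroblasts. With every cell thinned to 56586 counts, which kept 414 cells, the shares were 83.3% for Fgf2, 76.1% for Fgfr2, 66.4% for Hgf, 25.8% for Fgf10, 25.4% for Fgf18, 19.6% for Fgfr3, 13.5% for Fgf7 and 4.35% for Fgfr4.

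Per kilobase of exon, Fgfr1 had the highest level among the 9 genes, at 93.3 CPM per kb (92.4 to 94.2). Fgf18 was next at 26.8 CPM per kb (25.4 to 28.3), followed by Fgf2 at 16.9 (16.4 to 17.4), Fgfr2 at 12.4 (12.1 to 12.8) and Hgf at 8.65 (8.32 to 8.99). Fgf10 had 2.99 CPM per kb (2.75 to 3.24), Fgf7 2.06 (1.83 to 2.31), Fgfr3 1.37 (1.24 to 1.505) and Fgfr4 1.21 (1.04 to 1.39). Fgfr3 and Fgfr4 were the only neighbours in this order whose intervals overlapped. The place of Fgf18 rests on its annotated exon length of 1187 bp, which is the shortest of the 9. The longest is that of Fgfr2, at 10328 bp. By CPM not divided by length, Fgf18 stood at 31.8, below Fgfr1 (921.2), Fgfr2 (128.5), Fgf2 (114.7) and Hgf (62.2). Per kilobase, the order of Fgf18 and Fgf2 was not the same in every set of cells. In Rgs5-leading cells Fgf2 had 10.07 CPM per kb (9.50 to 10.7) and Fgf18 8.69 (7.45 to 10.08), and in the 127 cells of the columns low in Sftpc both had 14.5.

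A few cells held most of the counts of the less widely counted genes. The 46 cells with the most counts of a gene held 92.3% of all Fgf7 counts, 86.2% of Fgf18 counts, 79.6% of Fgfr3 counts and 67.4% of Fgf10 counts. The same number of cells held 47.6% of Hgf counts, 44.5% of Fgfr2 counts, 36.6% of Fgf2 counts and 24.2% of Fgfr1 counts. The highest count of Fgf18 in a cell was 130, and that cell alone held 9.59% of its counts. The highest count of Fgf10 in a cell was 20, and Fgf10 had a count in 132 cells and Fgf18 in 130.

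**Figure D1:**
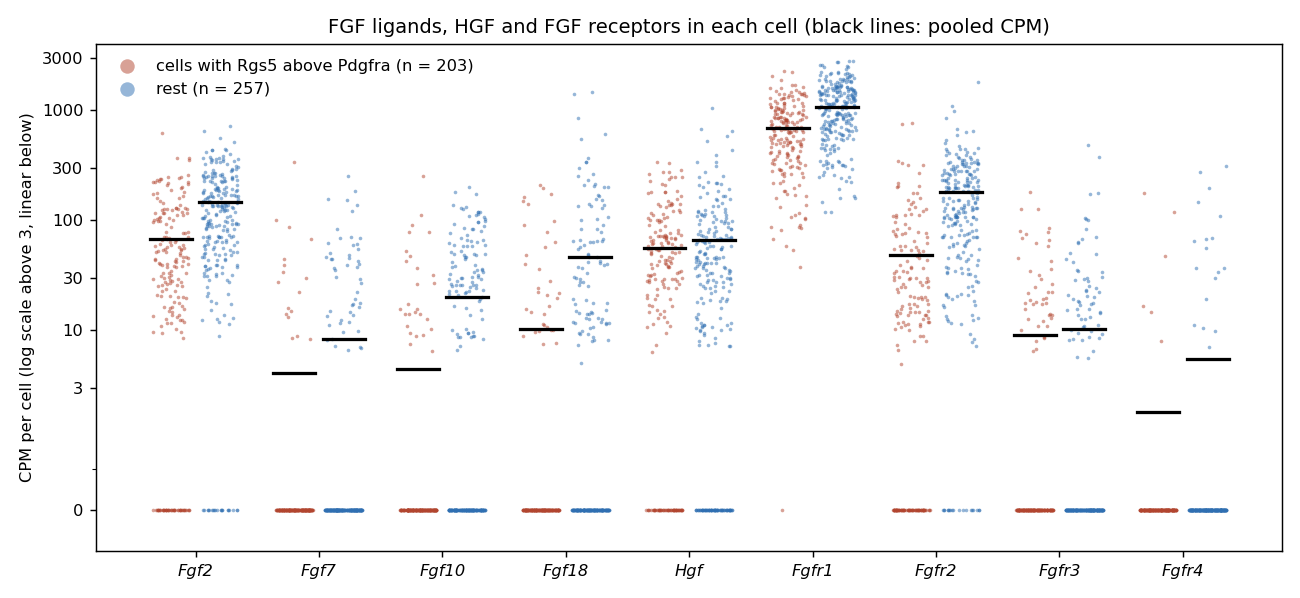
CPM of the 9 genes in each cell (points) on an axis that is logarithmic above 3 CPM, with Rgs5-leading cells (n = 203) left of Pdgfra-leading cells (n = 257) and pooled CPM as black lines. Cells without a count lie at 0, and the pooled lines of Fgf2, Fgf10, Fgf18 and Fgfr2 lie lower in Rgs5-leading cells while those of Hgf lie at 55.7 and 66.4 CPM.

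Between the 2 sets of cells, 7 of the 9 genes were at least 1.5-fold lower in Rgs5-leading cells, where 13.3% of the 16524 genes counted in at least 5% of cells were, and 0 were at least 1.5-fold higher, where 11.8% of all genes were. At 2-fold, 6 of the 9 were lower, against 6.79% of all genes, and 0 were higher, against 5.58%. All 9 genes entered this count, Fgfr4 by a narrow margin. Fgfr4 had a count in 2.96% of Rgs5-leading cells, below the 5% filter, and passed through its share in Pdgfra-leading cells. It had a count in 6 Rgs5-leading and 18 Pdgfra-leading cells. Fgfr4 is among the 7 and the 6 lower genes, although its ratio is not firm. The median log2 ratio of Rgs5-leading over Pdgfra-leading cells was -1.09 over the 9 genes and 0.02 over all genes tested. The genes that stayed within 1.5-fold were Hgf and Fgfr3.

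Among the ligands, Fgf10 and Fgf18 had the lowest ratios. Fgf10 stood at 4.42 CPM (3.48 to 5.54) in Rgs5-leading cells and 19.9 CPM (18.2 to 21.7) in Pdgfra-leading cells, with counts in 13.3% and 40.9% of these cells. Its ratio was 0.222 (0.172 to 0.283), a log2 ratio of -2.17. In both sets the median cell had no count, and the highest cell had 250.3 CPM among Rgs5-leading and 200.1 CPM among Pdgfra-leading cells, so the sets overlap fully in range. Among cells with a count, the median was 15.8 CPM in Rgs5-leading and 35.6 CPM in Pdgfra-leading cells. The share of cells and the level within them were thus both lower, and the top of the range was not. Only 12 of the 27 Rgs5-leading cells with a count had 2 or more, so their median lies at 1 count. Among Pdgfra-leading cells, 87 of 105 had 2 or more. A single cell with 14 counts held 18.7% of the Fgf10 counts of Rgs5-leading cells. Fgf18 stood at 10.3 CPM (8.85 to 11.97) in Rgs5-leading cells and 46.0 CPM (43.4 to 48.7) in Pdgfra-leading cells, with counts in 16.7% and 37.4% of them. Its ratio was 0.224 (0.190 to 0.263), a log2 ratio of -2.16. The highest cell reached 211.2 CPM among Rgs5-leading cells and 1476 CPM among Pdgfra-leading cells.

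Fgf2 was lower in Rgs5-leading cells at each quartile. The lower quartile, median and upper quartile of its CPM over cells were 11.3, 38.0 and 100.4 in Rgs5-leading cells and 49.3, 114.0 and 201.6 in Pdgfra-leading cells. Its pooled level was 68.3 CPM (64.4 to 72.3) in Rgs5-leading cells and 145.4 CPM (140.8 to 150.1) in Pdgfra-leading cells, a log2 ratio of -1.09. Fgf7 stood at 4.07 CPM (3.17 to 5.15) in Rgs5-leading cells and 8.42 CPM (7.33 to 9.62) in Pdgfra-leading cells, with counts in 17 and 51 cells and a ratio of 0.483 (0.363 to 0.637). A single Rgs5-leading cell held 31.9% of the 69 Fgf7 counts of that set, and without it the log2 ratio was -1.60 in place of -1.05. Hgf differed little. It stood at 55.7 CPM (52.2 to 59.4) in Rgs5-leading cells and 66.4 CPM (63.3 to 69.7) in Pdgfra-leading cells, with counts in 71.9% and 71.6% of the cells and a ratio of 0.839 (0.774 to 0.909). The median cell had 36.6 CPM of Hgf among Rgs5-leading cells and 31.6 CPM among Pdgfra-leading cells.

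The sequence before the start of the ligands with the lowest ratios, Fgf10 and Fgf18, is set beside that of Fgf7, which is counted in few cells, and of Hgf, which differed little. Each is the 250 bases before the start in the RefSeq table of GRCm38.p6, on the strand of the gene, and each start is also that of a transcript in GENCODE vM21. Capitals mark matches on either strand to GGGCGG, a GC box bound by Sp1-type factors, or TGGGAA, the core bound by the Notch effector Rbpj. Windows were found for 8 of the 9 genes, and Fgfr1 is named only.
Fgf10 (chr13:118714449-118714698, plus strand): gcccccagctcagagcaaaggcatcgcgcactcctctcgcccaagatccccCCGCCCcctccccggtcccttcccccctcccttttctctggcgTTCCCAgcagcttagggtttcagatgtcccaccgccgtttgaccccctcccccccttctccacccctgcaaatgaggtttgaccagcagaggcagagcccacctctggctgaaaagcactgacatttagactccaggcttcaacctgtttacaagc
Fgf18 (chr11:33147401-33147650, minus strand): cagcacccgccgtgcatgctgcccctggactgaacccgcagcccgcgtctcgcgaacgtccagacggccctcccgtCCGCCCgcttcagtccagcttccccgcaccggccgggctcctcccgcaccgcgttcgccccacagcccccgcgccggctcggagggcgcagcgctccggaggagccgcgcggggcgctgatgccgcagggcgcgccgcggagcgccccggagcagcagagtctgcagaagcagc
Fgf7 (chr2:126034408-126034657, plus strand): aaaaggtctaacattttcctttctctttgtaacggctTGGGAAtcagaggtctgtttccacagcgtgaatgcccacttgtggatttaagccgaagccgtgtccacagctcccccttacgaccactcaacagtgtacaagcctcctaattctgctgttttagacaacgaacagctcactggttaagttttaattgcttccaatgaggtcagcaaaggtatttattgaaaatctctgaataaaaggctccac
Hgf (chr5:16553245-16553494, plus strand): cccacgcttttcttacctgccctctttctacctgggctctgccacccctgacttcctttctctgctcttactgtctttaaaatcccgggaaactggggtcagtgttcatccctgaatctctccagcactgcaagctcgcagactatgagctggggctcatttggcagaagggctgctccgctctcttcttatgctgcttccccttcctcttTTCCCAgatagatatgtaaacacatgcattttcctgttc
The windows of Fgf10 and Fgf18 each hold 1 match to GGGCGG, which 32.7% of the 32851 windows of the table hold. Those of Fgf10, Fgf7 and Hgf each hold 1 match to TGGGAA, which 21.6% of all windows hold. CANNTG, the E-box, has 2 matches in Fgf10, 1 in Fgf7, 2 in Hgf and none in Fgf18, and 66.2% of all windows hold it. None of the 4 windows holds TATAAA (12.4% of windows), TGANTCA of AP-1 (6.75%), CATTCC of Tead factors (12.6%) or ACCACCC, the core bound by Gli factors (3.92%). No match overlapped another. The share of G and C was 61.2% for Fgf10, 77.2% for Fgf18, 43.6% for Fgf7 and 50.8% for Hgf, where the median of all windows was 52.4%. The window of Fgf18 holds 37 CpG pairs, against 8 in Fgf10, 6 in Fgf7 and 4 in Hgf, and against an upper quartile of 16 over all windows. Fgf10 and Fgf18, whose ratios were alike, thus differ in base composition, and GGGCGG is the one searched motif that both windows hold. That motif did not follow the ratios over the windows not printed. It had 1 match in Fgf2, 2 in Fgfr4, 3 in 1 window of Fgfr3 and 2 in its other. The window of Fgfr2, a gene with a low ratio, and a second window of Hgf held 0 matches.

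Among the receptors, Fgfr2 had the lowest ratio. Its lower quartile, median and upper quartile over cells were 0, 13.8 and 46.0 CPM in Rgs5-leading cells and 47.9, 129.6 and 255.6 CPM in Pdgfra-leading cells, so the upper quartile of the Rgs5-leading cells lay under the lower quartile of the Pdgfra-leading cells. Its pooled level was 48.1 CPM (44.8 to 51.5) in Rgs5-leading cells and 181.6 CPM (176.4 to 186.9) in Pdgfra-leading cells, a ratio of 0.265 (0.245 to 0.285) and a log2 ratio of -1.92. The share of cells with a count was 61.1% (54.0 to 67.8%) in Rgs5-leading cells and 93.0% (89.2 to 95.8%) in Pdgfra-leading cells. The table counts genes and not transcripts, so the splice forms of Fgfr2 that bind Fgf7 and Fgf10 or other FGFs cannot be told apart. Fgfr1, the receptor typical of mesenchyme, had its median over cells at 661.4 CPM in Rgs5-leading cells and 1076 CPM in Pdgfra-leading cells, with quartiles of 364.9 and 972.0 CPM in Rgs5-leading cells and 652.6 and 1526 CPM in Pdgfra-leading cells. Its pooled level was 688.3 CPM (675.9 to 700.9) in Rgs5-leading cells and 1075 CPM (1062 to 1088) in Pdgfra-leading cells, a ratio of 0.640 (0.626 to 0.654), close to the 1.5-fold limit. The 1 cell without an Fgfr1 count was an Rgs5-leading cell.

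Fgfr3 and Fgfr4 gave no firm ratio. Fgfr3 stood at 9.08 CPM (7.70 to 10.6) in Rgs5-leading cells and 10.3 CPM (9.05 to 11.6) in Pdgfra-leading cells, with counts in 22.2% and 24.1% of the cells and a ratio of 0.886 (0.721 to 1.08). Fgfr4 stood at 2.42 CPM (1.74 to 3.28) in Rgs5-leading cells and 5.496 CPM (4.63 to 6.48) in Pdgfra-leading cells, from 6 and 18 cells with a count. A single cell held 58.5% of the 41 Fgfr4 counts of Rgs5-leading cells, and with cells thinned to equal depth the log2 ratio was -3.24 in place of -1.18.

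All members but Hgf and Fgfr4 had lower ratios in cells with a clearer split. In the 160 cells with at least 3 times as many Rgs5 as Pdgfra counts and the 192 cells with the reverse, the log2 ratio was -3.58 for Fgf10, -3.00 for Fgf18, -2.52 for Fgfr2 and -1.39 for Fgf2. Fgf10 stood there at 1.65 CPM in the Rgs5-leading and 19.7 CPM in the Pdgfra-leading cells. Fgf7, Fgfr1 and Fgfr3 had log2 ratios of -1.35, -0.74 and -0.60 in the same cells. The Fgfr3 ratio of 0.659 (0.517 to 0.835) was past 1.5-fold there. Hgf had a log2 ratio of -0.06 in these cells and Fgfr4 one of -0.79.

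The ratios of Fgf2, Fgf10, Fgf18, Fgfr1 and Fgfr2 lay on the same side of 1 in the columns low in Sftpc and in the other columns. In the columns low in Sftpc, with 64 Rgs5-leading and 63 Pdgfra-leading cells, the log2 ratio was -1.84 for Fgf10, -2.23 for Fgf18, -1.41 for Fgf2, -1.61 for Fgfr2, -0.57 for Fgfr1 and -0.11 for Hgf. In the other columns, with 139 Rgs5-leading and 194 Pdgfra-leading cells, it was -2.42 for Fgf10, -2.08 for Fgf18, -0.98 for Fgf2, -1.99 for Fgfr2, -0.68 for Fgfr1 and -0.28 for Hgf. Fgf7, Fgfr3 and Fgfr4 did not share a value. Fgf7 had a ratio of 0.970 (0.580 to 1.61) in the columns low in Sftpc and 0.352 (0.241 to 0.501) in the others. Fgfr3 stood at 3.33 CPM in Rgs5-leading and 13.7 CPM in Pdgfra-leading cells of the columns low in Sftpc, from 16 and 74 counts, but at 11.4 and 9.34 CPM in Rgs5-leading and Pdgfra-leading cells of the others. Fgfr4 had 1 count in Rgs5-leading and 68 counts in Pdgfra-leading cells of the columns low in Sftpc, a ratio of 0.0166 (0.000414 to 0.0955), and a ratio of 0.913 (0.605 to 1.36) in the others. In the columns low in Sftpc, 1 Pdgfra-leading cell held 49.3% of the 69 Fgfr4 counts, which came from 6 cells. There, 1 Pdgfra-leading cell also held 35.6% of the 90 Fgfr3 counts. The counting intervals do not cover this spread between cells. The number of genes at least 1.5-fold lower was 6 of 9 within either set of columns, where 20.8% of all genes were lower in the columns low in Sftpc and 14% in the others. The part of these runs in the results was not tested beyond these values.

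**Figure D2:**
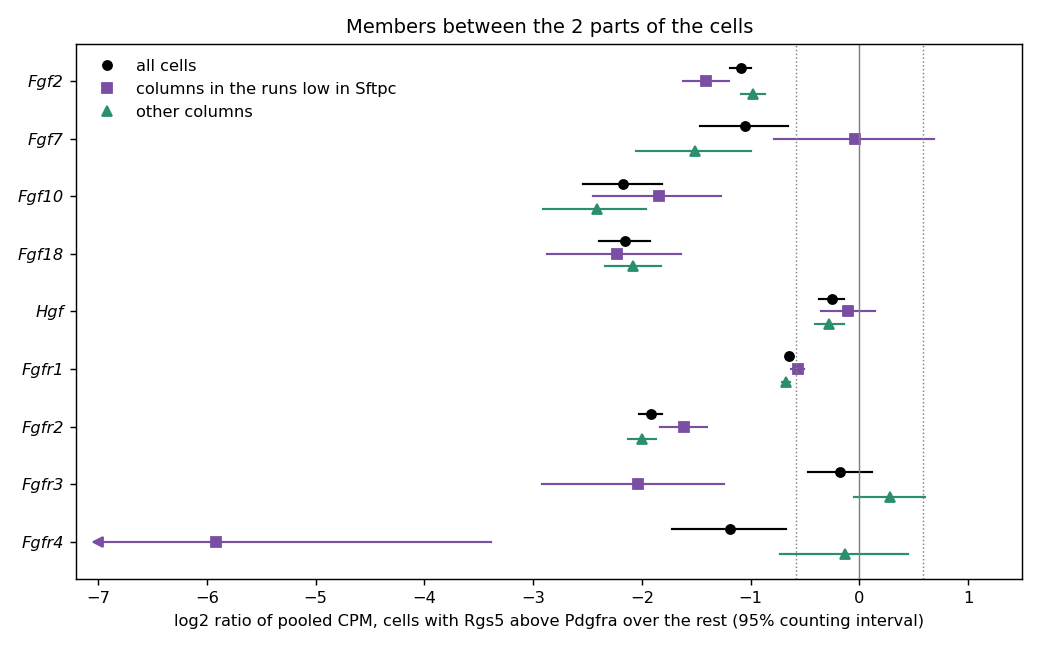
Log2 ratio of pooled CPM, Rgs5-leading over Pdgfra-leading cells, for each gene in all cells (circles), in the columns low in Sftpc (squares) and in the other columns (triangles), with 95% counting intervals and dotted lines at 1.5-fold. Fgf10, Fgf18 and Fgfr2 lie left of -1.5 in each, Hgf lies near 0, and Fgf7, Fgfr3 and Fgfr4 differ between the sets of columns (an arrow marks an interval that runs past the axis).

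Along the ratio of Rgs5 to Pdgfra, the genes did not all change at the same place. The cells were split after seeing the data into 5 equal sets of 92 cells by that ratio, given here from low to high. Fgfr2 stood at 215.5, 154.9, 160.3, 62.3 and 15.3 CPM, and it had a count in 94.6% of cells in the lowest set and 47.8% in the highest. Fgf10 stood at 18.0, 21.2, 22.1, 1.98 and 2.07 CPM, so its pooled level was alike over the 3 lowest sets and far lower in the 2 highest. It had a count in 46.7%, 43.5%, 31.5%, 7.61% and 14.1% of cells, so its share was already lower in the middle set. Fgf18 stood at 46.7, 69.4, 17.9, 10.2 and 5.52 CPM and was already low in the middle set, where the pooled level of Fgf10 was not. Fgf2 stood at 159.1, 140.9, 128.6, 75.8 and 49.7 CPM, a gradual decline. Fgfr1 stood at 1089, 1075, 1035, 621.9 and 704.0 CPM. Hgf had no order along the ratio, at 76.8, 50.3, 67.8, 50.6 and 63.8 CPM. The median depth of the sets was 101496, 93333, 88701, 80548 and 76004 counts, so depth moved along the same axis, and CPM scales each set to its own total.

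**Figure D3:**
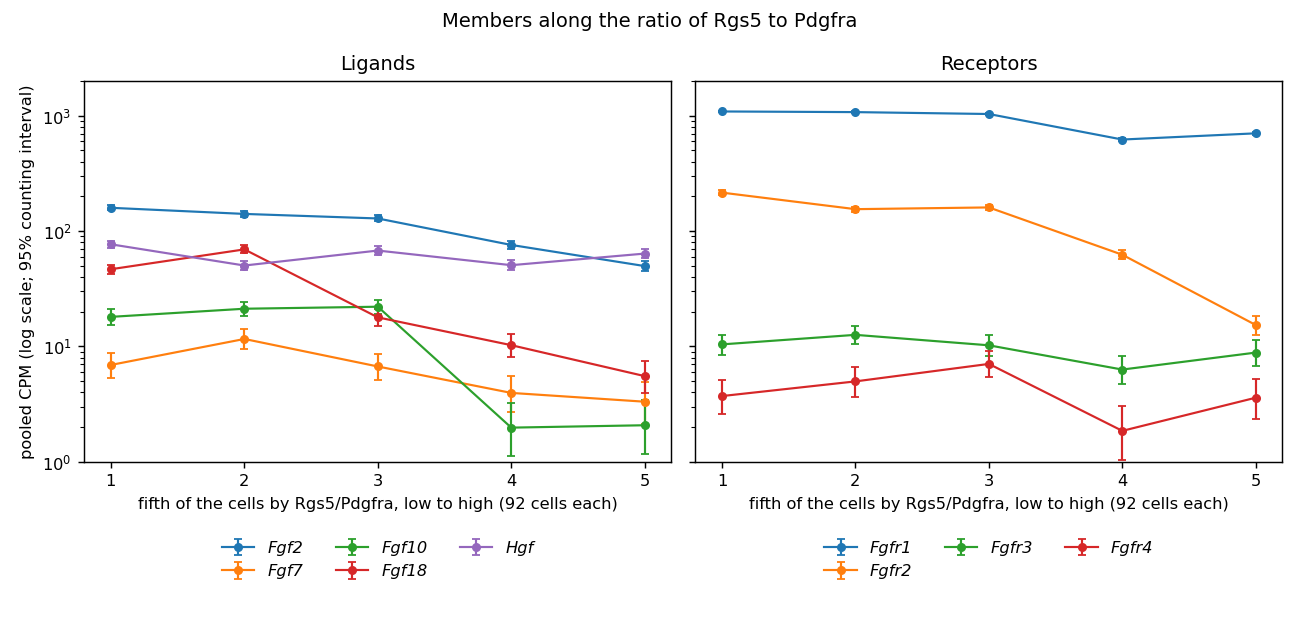
Pooled CPM (log axis, 95% counting intervals) of the ligands (left) and receptors (right) in 5 sets of 92 cells ordered from low to high Rgs5 over Pdgfra. Fgfr2 ends at 15.3 CPM and Fgf10 at 2.07 CPM in the highest set, whereas Hgf stays between 50.3 and 76.8 CPM.

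Markers of other lineages moved with the split. The pericyte or vascular smooth muscle list had 7 of 9 genes at least 1.5-fold higher in Rgs5-leading cells, with a summed level of 549 to 33077 CPM per cell (median 15815) in Rgs5-leading cells and 433 to 12980 CPM (median 3734) in Pdgfra-leading cells. Rgs5 itself is in this list and made the split. The alveolar fibroblast list had 4 of 6 counted genes lower, at 331 to 14669 CPM (median 1154) in Rgs5-leading cells and 539 to 15213 CPM (median 2935) in Pdgfra-leading cells, and the fibroblast list, which holds Pdgfra, had 6 of 9 lower and 2 higher. The lipofibroblast list went the other way, with 0 of 6 lower and 2 higher. The adventitial fibroblast list and the peribronchial fibroblast and airway myofibroblast list each had 3 of 6 counted genes lower and 1 higher. All 4 counted genes of the cycling list were lower. Over all genes, 13.3% were lower and 11.8% higher. The epithelial or lung tumour list had 8 of 9 genes higher in Rgs5-leading cells, at 0 to 21008 CPM (median 710.1) in these and 0 to 23995 CPM (median 609.2) in Pdgfra-leading cells. The immune list had 5 of its 5 counted genes higher, at 0 to 8601 CPM (median 75.5) in Rgs5-leading cells and 0 to 5529 CPM (median 70.1) in Pdgfra-leading cells. The mesothelial list had 3 of 5 higher, with a median of 0 in both. No marker of these lists was at 0 in the whole table, and their part in the ratios was not tested beyond the next values. In the 149 Rgs5-leading and 181 Pdgfra-leading cells with no count of Epcam, Pecam1 and Ptprc, a subset chosen after seeing the data, 6 of the 9 genes were at least 1.5-fold lower, against 16.8% of all genes. There the log2 ratio was -1.94 for Fgf10, -2.87 for Fgf18, -1.07 for Fgf2, -2.05 for Fgfr2, -0.24 for Hgf and -0.54 for Fgfr1, which no longer passed 1.5-fold.

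Rgs5-leading cells also carried fewer of the ligands per cell. The mean number of the 5 ligands with a count was 1.88 in Rgs5-leading cells and 2.62 in Pdgfra-leading cells, and after thinning to equal depth 1.74 in Rgs5-leading and 2.43 in Pdgfra-leading cells. The mean number of the 4 receptors was 1.86 in Rgs5-leading cells and 2.24 in Pdgfra-leading cells. Over all cells, 13 had no count of any ligand and 6 had a count of all 5, none of them Rgs5-leading. Fgf7 and Fgf10, which act on the same receptor form, were both counted in 32 cells, which is 47.1% of the cells with Fgf7 and 24.2% of those with Fgf10. Of the 132 cells with Fgf10, 87.9% also had a count of Fgfr2, and of the 130 with Fgf18 85.4% did, where 78.9% of all cells had one. Within Rgs5-leading cells these shares were 59.3% for Fgf10 and 55.9% for Fgf18, where 61.1% of all those cells had a count of Fgfr2, and within Pdgfra-leading cells they were 95.2% and 95.8%, where 93.0% had one. Of the 130 cells with Fgf18, 62.3% had a count of Hgf, where 71.7% of all cells had one. These shares depend on the depth of each cell and on the split, and are descriptions.

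Correlations between the genes over all cells reached at most 0.27. They are Spearman correlations on log-scaled counts, the cells share library and depth, and zeros tie many ranks. Over all 460 cells, 6 of the 36 pairs reached 0.2: Fgf10 with Fgfr1 (0.27), Fgf2 with Fgfr1 (0.26), Fgfr1 with Fgfr2 (0.24), Fgf10 with Fgfr2 (0.24), Fgf2 with Fgf10 (0.24) and Fgf2 with Fgfr2 (0.20). Of these, Fgf10 with Fgfr1 kept 0.23 within Pdgfra-leading cells, and the other 5 lay between -0.10 and 0.17 within either set. Fgfr3 with Fgfr4 was the other pair at 0.20 within Pdgfra-leading cells. Within Rgs5-leading cells the 1 pair at 0.2 or more was Fgf7 with Fgf10 (0.21). The number of pairs at 0.2 or more over cells was 8 with counts thinned to equal depth, 9 in the columns low in Sftpc, 5 in the other columns and 7 with Pearson's correlation. Fgfr3 with Fgfr4 stood at 0.43 by Pearson's and 0.19 by Spearman's correlation. Over all cells and within either set, Hgf had no correlation of 0.2 or more with any of the other 8 genes, while in the columns low in Sftpc it was at 0.21 with Fgf7. Its lowest was with Fgf18, at -0.16 over all cells, -0.15 within Rgs5-leading cells and -0.16 within Pdgfra-leading cells. Fgfr2 was the member most tied to the split over all cells, at -0.55 with Rgs5 and 0.49 with Pdgfra. Within Rgs5-leading cells it was at -0.43 with Rgs5 and 0.24 with Pdgfra, and within Pdgfra-leading cells at -0.07 and 0.12. Its correlation with total counts per cell was 0.27.

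**Figure D4:**
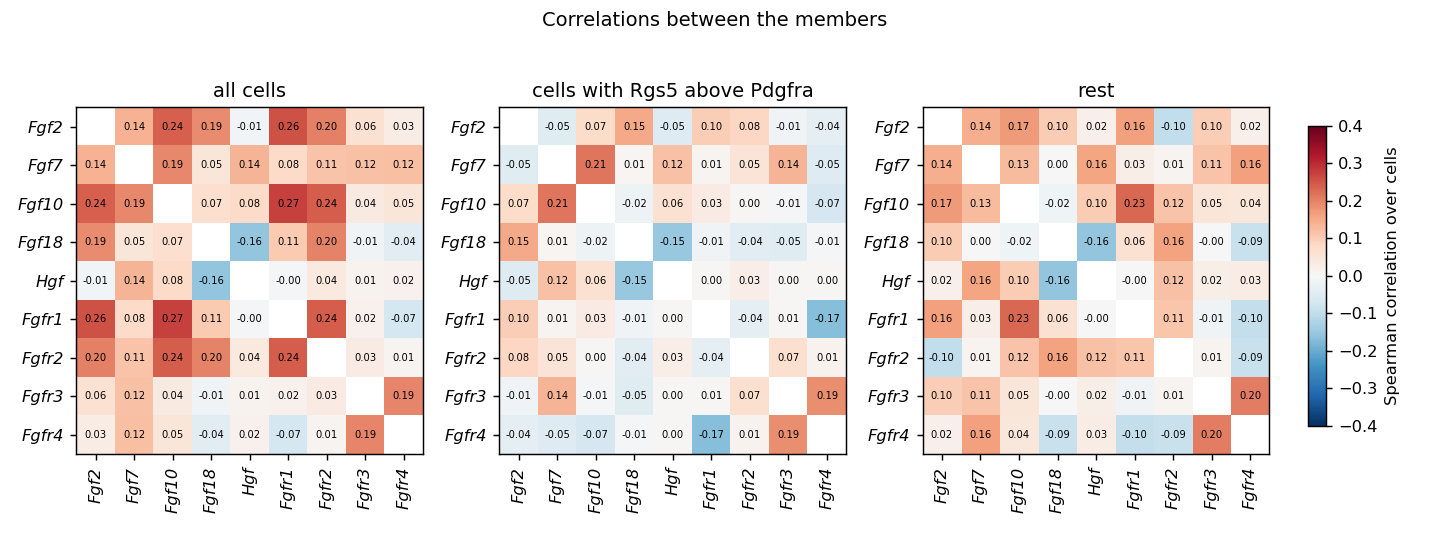
Spearman correlations between the 9 genes over all 460 cells (left), over Rgs5-leading cells (middle, n = 203) and over Pdgfra-leading cells (right, n = 257), with the value in each square. The block of Fgf2, Fgf10, Fgfr1 and Fgfr2 seen over all cells is paler within either set, and the row of Hgf over all cells lies between -0.16 with Fgf18 and 0.14 with Fgf7.

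For the 6 members with a count in at least 25% of cells, the genes most alike over all cells were ranked among 9054 genes counted as widely. Fgfr2 had the highest values, with Cxcl14, a chemokine (0.59), Cdh11, a mesenchymal cadherin (0.55), Igf1, an insulin-like growth factor (0.54), Ptgs1, a prostaglandin synthase (0.52), and Fmo2, a flavin monooxygenase on the alveolar fibroblast list (0.49). Within the sets these were lower. Igf1 was at 0.17 in Rgs5-leading and 0.41 in Pdgfra-leading cells, and Ptgs1 was at 0.35 in Rgs5-leading and 0.37 in Pdgfra-leading cells. Fgfr1 was most like Dkk2, a Wnt antagonist (0.49), Csmd1 (0.49), Gas7 (0.47), Col1a1 (0.47) and Fmo2 (0.47). Csmd1 was at 0.23 within Rgs5-leading and 0.54 within Pdgfra-leading cells. Fgf10 was most like Fmo2 (0.44), Colec12, a scavenger receptor (0.42), Sod3, the extracellular superoxide dismutase (0.41), Ltbp1, a carrier of latent TGF-beta (0.41), and Mfap5, a microfibril protein (0.40). Sod3 kept 0.32 within Rgs5-leading and 0.35 within Pdgfra-leading cells. Fmo2 thus stood among the 5 most alike genes of Fgf10, Fgfr1 and Fgfr2 over all cells, and its own level was 327.2 CPM in Rgs5-leading cells and 1481 CPM in Pdgfra-leading cells. Its values with Fgf10, Fgfr1 and Fgfr2 were 0.10, 0.19 and 0.28 within Rgs5-leading cells. Within Pdgfra-leading cells they were 0.40, 0.39 and 0.19.

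Fgf2 was most like the matrix genes Mgp (0.45) and Bgn (0.41), Sulf1, a sulfatase that edits heparan sulfate (0.41), Loxl1, a lysyl oxidase (0.40), and Fst, which encodes follistatin (0.40). Bgn was at 0.39 within Rgs5-leading cells and 0.17 within Pdgfra-leading cells. Fgf18 was most like Myl9, a myosin light chain (0.34), Nrcam, a cell adhesion molecule (0.33), Thbs1, a matrix thrombospondin (0.32), Phldb2 (0.31) and Lama5, a laminin chain (0.31). Thbs1 was at 0.12 within Rgs5-leading and 0.37 within Pdgfra-leading cells. For Hgf the highest value was 0.28, with Lamb1, a laminin chain, followed by Frmd5 (0.26), Lrp4 (0.24), Tcf21 (0.23) and Slc16a9 (0.23). Those values are weak. Lamb1 was at 0.30 within Rgs5-leading and 0.27 within Pdgfra-leading cells.

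Of the other genes of the pathway, 73 were counted in at least 5% of cells, and 16 were at least 1.5-fold lower (21.9%) and 12 higher (16.4%) in Rgs5-leading cells, with a median log2 ratio of -0.06. Over all genes these shares were 13.3% lower and 11.8% higher. Among 14 other FGF ligands, 7 had a count and only Fgf1 had one in at least 5% of cells. Fgf1, a ligand of all the FGF receptors, stood at 57.0 CPM in Rgs5-leading cells and 41.4 CPM in Pdgfra-leading cells, and at 14.2 CPM in the columns low in Sftpc and 58.1 CPM in the others. Fgf9 had a count in 4.13% of cells and Fgf23 in 1.96%. Fgf3, Fgf4, Fgf5, Fgf6, Fgf8, Fgf20 and Fgf22 had no count. For scale, 3 counts over all cells would be 0.0704 CPM, which is not an exact interval. Of the intracellular FGF homologous factors, Fgf11 was higher at 30.02 CPM in Rgs5-leading and 19.7 CPM in Pdgfra-leading cells, while Fgf12 had a count in 2.61% of cells, and Fgf14 was lower at 0.295 and 3.31 CPM in Rgs5-leading and Pdgfra-leading cells.

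Genes that present FGF to its receptors moved in both directions. Of 4 counted co-receptors and carriers, 3 were lower, among them Flrt2, a membrane partner of FGF receptors, at 27.7 CPM in Rgs5-leading and 79.9 CPM in Pdgfra-leading cells, and Fgfrl1, a receptor without a kinase domain, at 33.4 and 51.1 CPM in Rgs5-leading and Pdgfra-leading cells. Of the relatives of Flrt2, Flrt1 had a ratio of 0.627 and Flrt3 one of 1.16. Of 11 counted heparan sulfate proteoglycans, 3 were lower and 1 higher. Gpc6, a glypican, stood at 59.7 CPM in Rgs5-leading and 181.7 CPM in Pdgfra-leading cells, and its relative Gpc2 at 2.71 and 6.59 CPM in Rgs5-leading and Pdgfra-leading cells. Agrn, which encodes agrin, stood at 402.8 CPM in Rgs5-leading and 178.5 CPM in Pdgfra-leading cells. The most abundant of the list by CPM, Sdc3, Hspg2 and Sdc2, stayed within 1.5-fold. Of 13 counted heparan sulfate enzymes, 4 were lower and 2 higher. Sulf1 stood at 442.7 CPM in Rgs5-leading and 872.2 CPM in Pdgfra-leading cells, Ext1, a chain polymerase, at 138.3 and 231.1 CPM in Rgs5-leading and Pdgfra-leading cells. Ndst1, which starts the sulfation of the chain, had a ratio of 0.767. Of the sulfotransferases that add the rarer modification, Hs3st3a1 stood at 0.944 CPM in Rgs5-leading and 4.17 CPM in Pdgfra-leading cells, and Hs3st1 at 15.9 and 8.77 CPM in Rgs5-leading and Pdgfra-leading cells.

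Genes downstream of the receptors act as relays or as targets of the signal. Of 17 adaptors and relays, none was at least 1.5-fold lower and 1 was higher, Gab1, a docking protein, at 285.7 CPM in Rgs5-leading and 154.9 CPM in Pdgfra-leading cells. Shc1 and Braf, the other abundant genes of the list by CPM, had ratios of 0.854 and 0.938, and Sos1 had one of 0.704. Of 15 response genes, 2 were lower and 2 higher, near the share of all genes in each direction. Spry1, a feedback inhibitor of the cascade, stood at 339.0 CPM in Rgs5-leading and 677.9 CPM in Pdgfra-leading cells, and Ccnd1, which encodes cyclin D1, at 180.2 and 348.2 CPM in Rgs5-leading and Pdgfra-leading cells. The phosphatase genes Dusp4 and Dusp5 were higher, with ratios of 1.54 (1.42 to 1.68) and 1.52 (1.45 to 1.58). Spry4, of the same family as Spry1, stood at 590.7 CPM in Rgs5-leading and 553.5 CPM in Pdgfra-leading cells. Phlda1, another abundant gene of the list, had a ratio of 0.815. Dusp6, Etv4 and Etv5, often used as readouts of FGF signalling, had ratios of 0.883, 1.04 and 0.818. Over cells, Spry1 correlated at 0.37 with Fgfr1 and 0.35 with Fgfr2, and at 0.21 and -0.03 within Rgs5-leading cells and 0.24 and 0.21 within Pdgfra-leading cells. Dusp6 was at 0.04 with Fgfr1 and 0.07 with Fgfr2.

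Of 10 counted genes of HGF reception and processing, 3 were lower and 5 higher. Plau, an activator of pro-HGF, was lower, at 11.9 CPM in Rgs5-leading and 49.4 CPM in Pdgfra-leading cells, while Plat, the most abundant of the list by CPM, had a ratio of 0.984 and Cbl, a ligase that marks Met for breakdown, one of 1.31. Met, the Hgf receptor, was higher, at 16.2 CPM in Rgs5-leading and 2.96 CPM in Pdgfra-leading cells, as were St14, an epithelial protease, at 4.78 and 1.36 CPM, and Spint1, its inhibitor, at 19.3 and 5.496 CPM, in Rgs5-leading and Pdgfra-leading cells. Met was at 0.489 CPM in the columns low in Sftpc and 10.7 CPM in the others. In the cells with no count of Epcam, Pecam1 and Ptprc, Met stood at 1.73 CPM in Rgs5-leading and 1.70 CPM in Pdgfra-leading cells, a ratio of 1.02 (0.551 to 1.86), St14 had a ratio of 1.71 (0.623 to 4.74), Spint1 one of 2.72 (1.64 to 4.58) and Plau one of 0.238 (0.198 to 0.284). In the columns low in Sftpc, Spint1 had 4 counts in Rgs5-leading and 8 in Pdgfra-leading cells, a ratio of 0.563 (0.124 to 2.10), and St14 had 4 counts in Rgs5-leading and 0 in Pdgfra-leading cells.

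**Figure D5:**
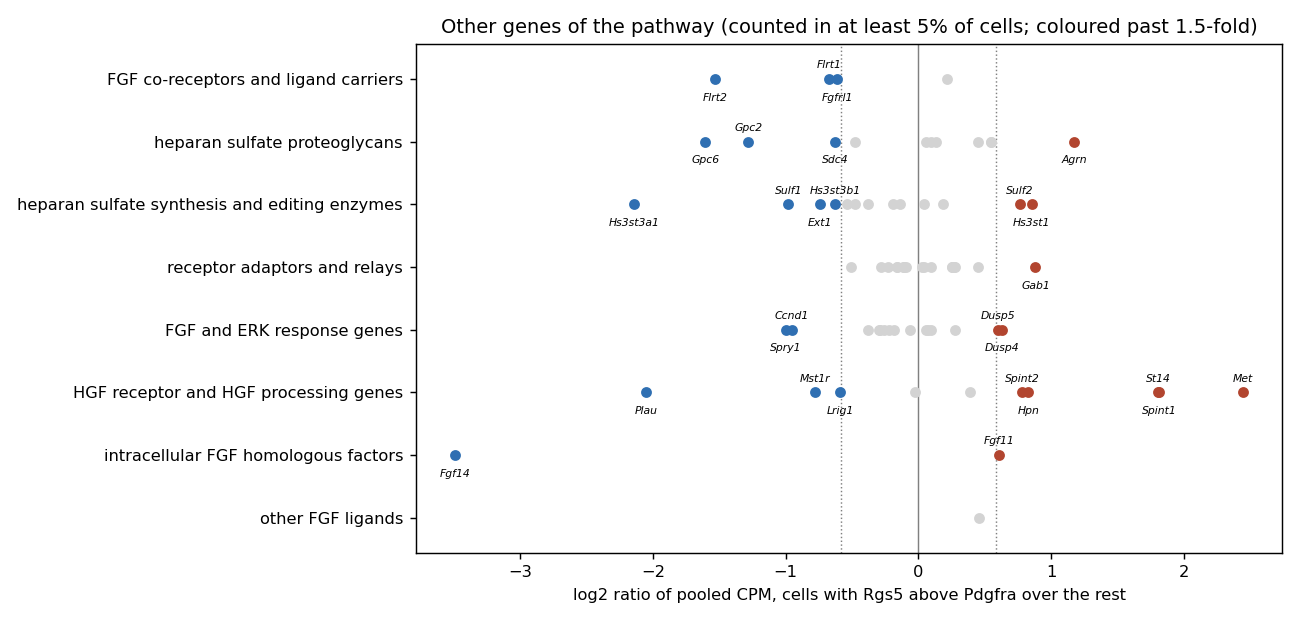
Log2 ratio of pooled CPM, Rgs5-leading over Pdgfra-leading cells, for 73 other genes of the pathway in 8 lists, with dotted lines at 1.5-fold and genes beyond them named. Lower genes such as Plau, Flrt2 and Gpc6 lie left and higher ones such as Met and Agrn right, and the adaptors and relays lie close to 0 except Gab1.

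Some of these genes share exon sequence with neighbours, and whether the counting used strand is not given. By GENCODE vM21, Fgf2 (chr3:37348346-37410108, plus strand) overlaps Nudt6 on the opposite strand over 9.44% of its exon length, and Nudt6 had 64 counts in the table where Fgf2 had 4888. Fgfr1 (chr8:25513654-25575718, plus strand) overlaps the antisense gene Gm16159 over 1.66% of its exon length, with 626 counts against 39254 for Fgfr1. Fgfr2, on the minus strand of chromosome 7, shares 3.04% of its exon length with Ctbp2 on the same strand, and Ctbp2 stood at 105.6 CPM in Rgs5-leading and 97.8 CPM in Pdgfra-leading cells, unlike Fgfr2. Hgf (chr5:16553495-16620152, plus strand) shares 6.74% with the unverified gene Gm43489, which had 258 counts.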

How the data were processed

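Single cells were profiled by RNA sequencing, with libraries made by sonication and ligation per the labels' protocols. The authors deposited 1 table of molecular barcode counts, whole numbers for 48440 genes in 460 cells, used here as counts. STAR, HTSeq and the build mm10 are listed in the submitters' processing notes, with no version. How reads became barcode counts is not given in the sources used here. All 460 cells were kept, no 2 columns were identical, and no doublet caller was run; an alternative dropped the deepest 5% of cells.

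CPM is the summed count of a gene per 1000000 summed counts. Exact Poisson intervals were used for CPM, Clopper-Pearson intervals for shares, and conditional binomial intervals for ratios, at 95%. Counts of genes past 1.5-fold use genes with a count in at least 5% of cells. Correlations are Spearman, on log1p values after each cell was scaled to a total of 10000. Gene identifiers matched GENCODE vM21 for 48058 of 48440 genes without version, and exon lengths and positions come from it. Over 14362 genes with at least 100 counts, exon length and summed count had a Spearman correlation of 0.42. A column belongs to a run low in Sftpc if over 50% of its 20 neighbours in the table were below 30 CPM for that gene. Thinned values use 1 draw without replacement.

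The members, gene lists and comparisons were chosen with earlier results of these data known. Named genes are the 9 members, the 3 highest by CPM and up to 3 with the largest fold of each pathway list, the 5 most alike genes of each member counted in at least 25% of cells, and Rgs5, Pdgfra, Sftpc, Epcam, Pecam1 and Ptprc. A few genes that these rules select, and the strain's allele, are not reported here. A few others were named after their values were seen (Nudt6, Gm16159, Ctbp2, Gm43489, Dusp5, Dusp6, Etv4, Etv5, St14, and Dcn). Fold and likeness steps were tested on simulated data. Alternatives changed the averaging, depth, split margin, cells and columns used, filter and correlation. Tools were numpy 2.4.6, pandas 2.3.3, scipy 1.17.1 and matplotlib 3.10.9 under Python 3.11.15.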

Additional observations from a re-analysis of the deposited data

How the results depend on the processing

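The number of genes at least 1.5-fold lower in Rgs5-leading cells was 7 of 9 and stayed between 6 and 8 under the 11 alternatives, with 0 higher in each. Of all genes, 13.1 to 20.8% were lower under the 9 of these alternatives that kept 1.5-fold and were computed over all genes. Under the alternative of 2-fold, 6.79% of all genes were lower. Fgf2, Fgf10, Fgf18, Hgf, Fgfr1 and Fgfr2 kept a negative log2 ratio in each, with ranges of -1.41 to -0.98, -3.58 to -1.84, -3.00 to -1.99, -0.28 to -0.06, -0.74 to -0.54 and -2.52 to -1.61. Fgf7 ranged from -1.60 to -0.04, Fgfr4 from -5.92 to -0.13 and Fgfr3 from -2.04 to 0.28. Without a filter on low values, 25.3% of all genes were at least 1.5-fold lower and 24.5% higher, over genes with any count. The number of pairs with a correlation of at least 0.2 was 6 over all cells, 1 within Rgs5-leading cells, which is not among the 6, and 2 within Pdgfra-leading cells, 1 of them among the 6; the cause was not tested. For the other genes of the pathway, 14 to 21 were lower and 9 to 13 higher under the alternatives tried. With 1 sample, spread between animals or cultures is not measured. For Fgf7 and Fgfr4, single cells held 31.9% and 58.5% of the counts of Rgs5-leading cells. Both ends of the Fgfr3 range came from the 2 sets of columns, -2.04 in those low in Sftpc and 0.28 in the others. Without the cell with the most Fgfr3 counts, its log2 ratio was 0.04 in place of -0.17.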

Other observations

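A set of 13 cells had at least 10 summed counts of posterior Hox genes, and 2 of them were Rgs5-leading. Fgfr2 stood at 271.2 CPM (244.1 to 300.4) in these cells and 123.8 CPM (120.4 to 127.2) in the others, and had a count in 12 of the 13. Among the others, it stood at 178.4 CPM in Pdgfra-leading and 43.2 CPM in Rgs5-leading cells, so the gap to Pdgfra-leading cells alone was smaller. Fgf2 stood at 52.6 CPM (41.1 to 66.4) in the posterior Hox cells and 116.7 CPM (113.5 to 120.1) in the others. In the posterior Hox cells 1 cell held 35.2% of the Fgf2 counts, and without it Fgf2 stood at 37.8 CPM (27.7 to 50.4). Fgf10 stood at 2.96 CPM (0.808 to 7.59) in the posterior Hox cells, from 1 cell, and 14.1 CPM (12.98 to 15.3) in the others. Hgf stood at 87.4 CPM (72.4 to 104.7) in the posterior Hox cells and 61.3 CPM (59.0 to 63.8) in the others, but 1 of the 13 cells held 38.1% of these counts, and without it the level was 58.5 CPM (45.9 to 73.6). Fgfr1 stood at 585.3 CPM in the posterior Hox cells and 932.2 CPM in the others, and 1 of the 13 cells held 34.1% of these counts. These cells come from the same single sample, and no test was made.

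In the 31 cells with at least 10 summed counts of the cycling list, 9 of them Rgs5-leading, Fgfr3 had a count in 45.2% of cells (27.3 to 64.0%), against 21.7% (17.9 to 25.9%) of the others. With counts thinned to equal depth, the shares were 25.8% (11.9 to 44.6%) in cycling cells and 19.1% (15.2 to 23.4%) in the others, with overlapping intervals. Its level was 13.5 CPM (10.02 to 17.7) in cycling cells and 9.43 CPM (8.49 to 10.4) in the others. Fgf7 stood at 1.58 CPM (0.581 to 3.45) in cycling cells, from 6 counts, and 7.19 CPM (6.37 to 8.08) in the others. Fgfr1 stood at 770.7 CPM (743.0 to 799.1) in cycling cells and 935.9 CPM (926.3 to 945.6) in the others. Fgf18 stood at 22.7 CPM (18.2 to 28.0) in cycling cells and 32.7 CPM (30.9 to 34.6) in the others. In cycling cells its counts came from 6 cells, and 1 of them held 41.9%. Fgf2, Fgf10, Fgfr2 and Hgf stood at 109.0, 11.9, 143.0 and 69.9 CPM in cycling cells and 115.3, 13.9, 127.0 and 61.4 CPM in the others.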
